A study of Homo sapiens with 6 samples.

Results

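The genes described here form the insulin receptor, PI3K and FOXO axis of PC9 cells and of the persister cells that remain under erlotinib. They are the rows of the deposited gene counts whose symbol was INSR, IGF1R, IRS1, IRS2, PIK3R1, PIK3IP1, FOXO1, FOXO3, FOXO4 or TXNIP, so 10 of 36459 gene symbols, and all 10 were found and passed the filter on low counts. PC9 is a line of non-small cell lung cancer of human origin that depends on a mutated EGFR. Parental PC9 cells, grown without the drug, were compared with PS PC9 cells, the persisters collected after 6 days in continuous erlotinib, an inhibitor of the EGFR kinase. RNA from 3 libraries per condition was enriched for poly-A and sequenced. Both conditions came from this single line. The PC9 libraries came from independent cultures, whereas each PS PC9 library was pooled from several independent cultures, so the spread among PS PC9 libraries is a spread of pools. Drug presence and persister state went together in this design and cannot be told apart.

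Insulin and the insulin-like growth factors bind the receptor kinases INSR and IGF1R, which phosphorylate the docking proteins IRS1 and IRS2. These recruit PI3K, whose lipid product activates AKT, and AKT phosphorylates FOXO1, FOXO3 and FOXO4 and keeps them out of the nucleus. When the signal falls, FOXO proteins enter the nucleus and switch on genes of growth arrest, stress defence and survival, among them several genes of the pathway itself. EGFR feeds the same PI3K and AKT steps, partly through ERBB3. Most of this regulation acts on proteins, which RNA counts do not measure.

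Total counts ran from 29.5 M to 34.9 M per library, and the 10 genes held between 0.0754% and 0.0994% of them. Across genes, which are not independent replicates, libraries of the same condition correlated between 0.992 and 0.995 and libraries of different conditions between 0.956 and 0.958. Of the 8 listed markers of lung adenocarcinoma epithelium 6 were tested and their list summed to between 7519 and 8051 CPM (counts scaled to the TMM library size, the unit of all levels here) in PC9 and between 5936 and 6298 CPM in PS PC9, with keratins and EPCAM present. At an edgeR adjusted p under 0.01, 4 of the 6 were lower in PS PC9, namely EPCAM, KRT8, KRT18 and KRT19. The other 2 were higher, KRT7 from 1983 to 2725 CPM and CDH1 from 207 to 314 CPM on average. The lung markers NKX2-1 and NAPSA were at 0.275 CPM or lower on average in both conditions. The 4 leukocyte markers summed to between 74.4 and 76.1 CPM in PC9 and between 19.6 and 22.5 CPM in PS PC9, nearly all of it CD68, with CD3E at 0. The 4 fibroblast markers went from between 10.3 and 10.9 to between 27.3 and 30.5 CPM, mostly COL1A1, with COL3A1 at 0, and the 3 endothelial markers from between 8.05 and 8.82 to between 3.25 and 3.80 CPM. The part of these markers in the results was not tested. All libraries were cultures of the single PC9 line, so these values are not read as amounts of other cell types. In bulk RNA, fewer cells that express a gene and less of its RNA per cell cannot be told apart.

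Of the 10 genes 8 changed in PS PC9 at a Benjamini-Hochberg adjusted p under 0.01 by the quasi-likelihood test of edgeR. Among all 14626 genes tested the share was 56.8%, so a change as such was common. INSR, IRS1, IRS2, PIK3IP1, FOXO4 and TXNIP were lower, 6 of 10 against 28.1% of all genes. IGF1R and PIK3R1 were higher, 2 of 10 against 28.7%. The 10 genes were chosen with earlier results of these data known, so these shares describe them and do not test them. For 9 of the 10, with FOXO3 as the exception, no PS PC9 value fell within the PC9 range or the reverse, and the same held for 71.3% of all genes tested. The median log2 fold change was -0.34 over the 10 genes and -0.0061 over all genes. PIK3IP1 was the only member that changed by more than 2-fold.

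**Figure D1:**
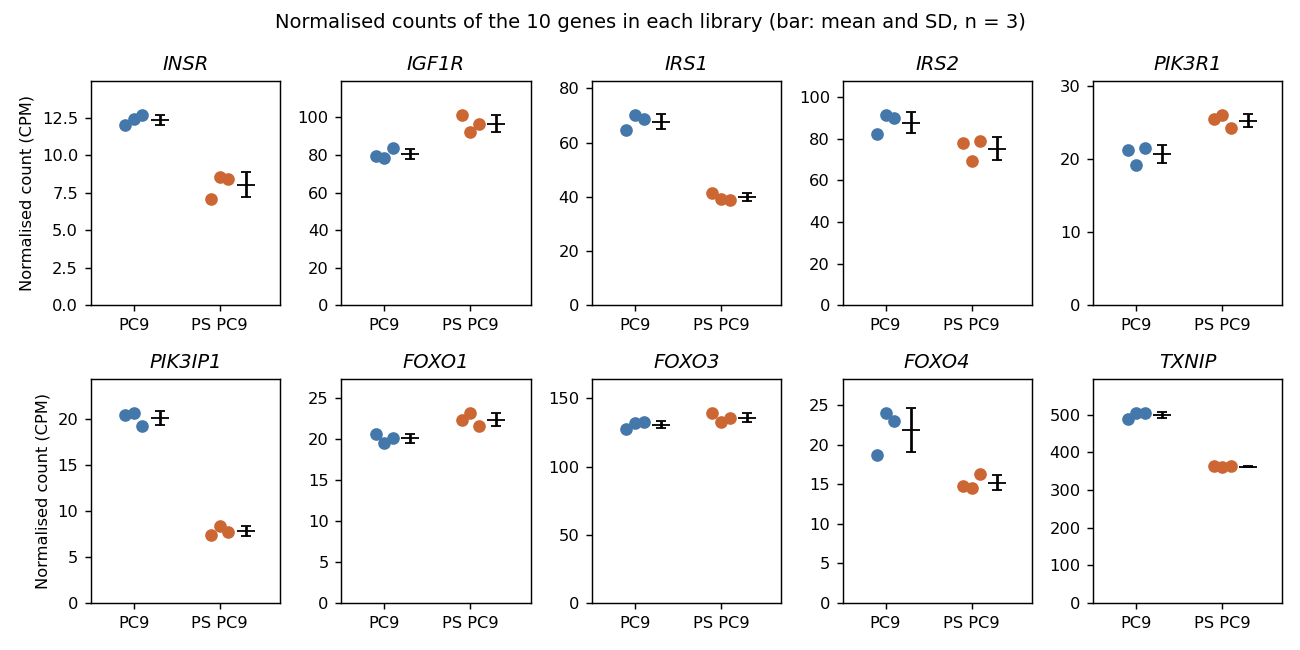
Normalised counts (CPM, vertical axes starting at 0) of the 10 genes in the 3 PC9 libraries (blue) and the 3 PS PC9 libraries (orange), with the mean and SD of each condition in black. The points of the conditions are apart for every gene but FOXO3, and the widest relative gap is that of PIK3IP1, at 20.1 against 7.82 CPM.

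INSR, the insulin receptor (ENSG00000171105, chromosome 19 of GRCh38, 7112255 to 7294414, minus strand), is made in a form with exon 11 and a form without it, which bind insulin-like growth factors differently. Exon 11 lies at chr19:7150497-7150532 on the minus strand, is 36 bases long and is coding throughout. It is shown because it separates the transcripts INSR-201, which has it, and INSR-202, which lacks it.
INSR exon 11: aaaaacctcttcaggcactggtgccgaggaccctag

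INSR stood at 12.0, 12.5 and 12.7 CPM in PC9 replicates 1 to 3 and at 7.09, 8.58 and 8.46 CPM in PS PC9 replicates 1 to 3. All PS PC9 values were below the PC9 range, and PS PC9 replicate 1 was the lowest. The means were 12.4 ± 0.348 and 8.04 ± 0.826 CPM (SD, n = 3), a log2 fold change of -0.62 (standard error, SE, 0.084, Benjamini-Hochberg adjusted p = 6.63e-05 by edgeR's quasi-likelihood method). Counted per kilobase of its canonical transcript, INSR was the lowest of the 10 genes in both conditions, at 1.31 CPM per kb in PC9 and 0.850 CPM per kb in PS PC9.

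IGF1R, the receptor of the insulin-like growth factors (chromosome 15, 98648539 to 98964530, plus strand), moved the other way. It stood at 79.6, 78.5 and 83.5 CPM in the PC9 libraries and at 101, 92.2 and 96.6 CPM in the PS PC9 libraries, with no overlap. The rise from 80.5 ± 2.64 to 96.7 ± 4.50 CPM (SD, n = 3) was a log2 fold change of 0.26 (SE 0.046, edgeR adjusted p = 0.000397). With gene counts summed from the transcript counts the log2 fold change was 0.55 and the adjusted p 0.101, since between 71.3% and 86.2% of the IGF1R counts of a library lay on transcripts that could not be matched to the annotation. The length of the canonical transcript may not apply to those unmatched counts, so the levels of IGF1R per kilobase are uncertain to that extent. The ratio of IGF1R to INSR per kilobase within a library, chosen after the values were seen, was 5.13, 4.87 and 5.09 in PC9 and 11.04, 8.32 and 8.83 in PS PC9. Its means were 5.03 ± 0.138 and 9.40 ± 1.45 (SD), with a two-sided exact permutation p of 0.1, which is the smallest that 3 libraries against 3 allow. The third receptor of the family, INSRR, had 0 counts in all 6 libraries.

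IRS1, the docking protein that carries much of the signal of both receptors to PI3K (chromosome 2, 226731312 to 226799820, minus strand), fell further than INSR. It stood at 64.7, 70.1 and 68.5 CPM in PC9 and at 41.4, 39.1 and 38.8 CPM in PS PC9. The libraries of the conditions were far apart compared with their spread, at 67.8 ± 2.78 and 39.8 ± 1.43 CPM (SD, n = 3). The log2 fold change was -0.77 (SE 0.048, edgeR adjusted p = 1.43e-07), a level lower by 41.3%.

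IRS2, the second main docking protein and a known FOXO target in liver (chromosome 13, 109752695 to 109786583, minus strand), stood at 82.2, 91.3 and 89.7 CPM in PC9 and at 77.7, 69.2 and 78.9 CPM in PS PC9. The lowest PC9 library was only slightly above the highest PS PC9 library. The means of 87.7 ± 4.85 and 75.3 ± 5.30 CPM (SD, n = 3) gave a log2 fold change of -0.22 (SE 0.059, edgeR adjusted p = 0.00616). The call rested on single libraries. Without PC9 replicate 2 the log2 fold change was -0.19 (edgeR adjusted p = 0.0143), without PC9 replicate 3 -0.21 (0.0291), without PS PC9 replicate 1 -0.24 (0.0118) and without PS PC9 replicate 2 -0.16 (0.0301). The ratio of IRS2 to IRS1 per kilobase, also chosen after the values were seen, was 1.55 ± 0.025 in PC9 and 2.27 ± 0.160 in PS PC9 (SD, n = 3, two-sided exact permutation p = 0.1). IRS4 had at most 1 count in a library.

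PIK3R1 encodes the regulatory subunits p85α, p55α and p50α of class I PI3K, which hold the catalytic subunit stable, keep it inactive and bring it to the docking proteins (chromosome 5, 68215740 to 68301821, plus strand). It stood at 21.2, 19.2 and 21.5 CPM in PC9 and at 25.4, 26.0 and 24.2 CPM in PS PC9, and the lowest PS PC9 value exceeded the highest PC9 value. It rose from 20.6 ± 1.27 to 25.2 ± 0.899 CPM (SD, n = 3), a log2 fold change of 0.29 (SE 0.060, edgeR adjusted p = 0.00145). Its paralog PIK3R2 also rose, from 128 ± 8.65 to 150 ± 5.64 CPM (log2 fold change 0.23, edgeR adjusted p = 0.00256), a call lost without PC9 replicate 3, PS PC9 replicate 2 or PS PC9 replicate 3 and with scaling by library size alone. PIK3R3 had a log2 fold change of -0.12 and did not pass the limit (edgeR adjusted p = 0.0300).

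PIK3IP1, a transmembrane protein that binds the catalytic subunit of PI3K and inhibits it (chromosome 22, 31281594 to 31292534, minus strand), changed most. It stood at 20.4, 20.6 and 19.2 CPM in PC9 and at 7.40, 8.39 and 7.67 CPM in PS PC9. The means were 20.1 ± 0.773 and 7.82 ± 0.511 CPM (SD, n = 3), so the level fell by 61.0% (log2 fold change -1.36, SE 0.070, edgeR adjusted p = 3.31e-08). Ordered by log2 fold change, PIK3IP1 was gene 542 from the lowest of the 14626. Per kilobase, PIK3IP1 was at 8.29 CPM per kb in PC9 against 2.96 for PIK3R1, and at 3.23 against 3.61 in PS PC9. The ratio of PIK3R1 to PIK3IP1 per kilobase within a library, chosen after the values were seen, was thus 0.358 ± 0.033 in PC9 and 1.12 ± 0.063 in PS PC9 (SD, n = 3, two-sided exact permutation p = 0.1).

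FOXO1, FOXO3 and FOXO4 are the forkhead transcription factors that AKT holds in the cytoplasm. FOXO1 (chromosome 13, 40555667 to 40666641, minus strand) stood at 20.6, 19.5 and 20.1 CPM in PC9 and at 22.3, 23.2 and 21.6 CPM in PS PC9. Its libraries did not overlap, yet it missed the limit, with a log2 fold change of 0.16 (95% interval 0.036 to 0.27, edgeR adjusted p = 0.0250). FOXO3 (chromosome 6, 108559835 to 108684774, plus strand) stood at 128, 132 and 133 CPM in PC9 and at 139, 132.5 and 136 CPM in PS PC9, and these overlapped. Its log2 fold change of 0.056 had a 95% interval of -0.027 to 0.14 (edgeR adjusted p = 0.207). FOXO3 has a near-identical copy, FOXO3B, at 3.38 ± 0.686 and 4.33 ± 0.052 CPM, and reads of the pair may have been divided between them, so the FOXO3 counts are uncertain to that extent.

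FOXO4 (chromosome X, 71095851 to 71103532, plus strand) was the FOXO member that changed. It stood at 18.7, 24.0 and 23.0 CPM in PC9 and at 14.7, 14.5 and 16.2 CPM in PS PC9. PC9 replicate 1 was lower than the other PC9 libraries but above all PS PC9 libraries. The fall from 21.9 ± 2.79 to 15.2 ± 0.939 CPM (SD, n = 3) was a log2 fold change of -0.53 (SE 0.092, edgeR adjusted p = 0.000399). The neuronal paralog FOXO6 also fell, from 11.8 ± 1.49 to 8.83 ± 0.764 CPM (log2 fold change -0.41, edgeR adjusted p = 0.00440). That call was lost without PC9 replicate 2, PS PC9 replicate 1 or PS PC9 replicate 2 and with gene counts summed from transcripts.

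Shares of the summed FOXO level per kilobase were taken within each library after these values had been seen. FOXO3 made up 50.8 ± 1.85% of the sum in PC9 and 57.1 ± 1.45% in PS PC9 (SD, n = 3), and FOXO1 9.85 ± 0.809% and 11.9 ± 0.674%. FOXO4 went from 16.9 ± 1.35% to 12.7 ± 0.526% and FOXO6 from 22.4 ± 1.78% to 18.3 ± 1.28%. The 4 shares are parts of the same sum, so a fall of some raises the others and they are not separate results. None of the 4 shares overlapped between conditions. Each gave a two-sided exact permutation p of 0.1, the smallest that the design allows. Over the 8 ratios and shares computed in this family the Benjamini-Hochberg adjusted p was also 0.1. As no smaller value was possible, none of them could have passed the limit.

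TXNIP, the thioredoxin-interacting protein, an alpha-arrestin that lowers glucose uptake and binds thioredoxin, is switched on by the glucose-sensing Mondo factors and by FOXO proteins (chromosome 1, 145992435 to 145996579, minus strand). It stood at 489, 503 and 504 CPM in PC9 and at 363, 360 and 363 CPM in PS PC9, so the libraries of each condition were close together and the conditions apart. The fall from 499 ± 8.75 to 362 ± 2.03 CPM (SD, n = 3) was a log2 fold change of -0.46 (SE 0.032, edgeR adjusted p = 3.27e-07). Per kilobase TXNIP was the highest of the 10 genes in both conditions, at 172 CPM per kb in PC9 and 125 CPM per kb in PS PC9.

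Per kilobase of canonical transcript, TXNIP was followed in PC9 by FOXO3 at 17.9 ± 0.384, IRS2 at 10.8 ± 0.594, PIK3IP1 at 8.29 ± 0.319, IRS1 at 6.94 ± 0.284 and IGF1R at 6.58 ± 0.216 CPM per kb (SD, n = 3). FOXO4 at 6.01 ± 0.765, FOXO1 at 3.47 ± 0.0997, PIK3R1 at 2.96 ± 0.183 and INSR came last. IGF1R and FOXO4 differed by less than the SD of FOXO4, and IRS1 and IGF1R by less than the sum of their SDs. The place of IGF1R is also uncertain in both conditions because most of its counts lay on unmatched transcripts, whose length was not used. In PS PC9 FOXO3 and IRS2 kept the places behind TXNIP, at 18.6 ± 0.469 and 9.23 ± 0.650 CPM per kb, and IGF1R was next at 7.90 ± 0.368. PIK3IP1 stood at 3.23 ± 0.211, below PIK3R1 at 3.61 ± 0.129 CPM per kb. FOXO4 at 4.16 ± 0.258, IRS1 at 4.07 ± 0.146 and FOXO1 at 3.87 ± 0.136 CPM per kb stood close together, with a gap between FOXO4 and IRS1 smaller than either SD.

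**Figure D2:**
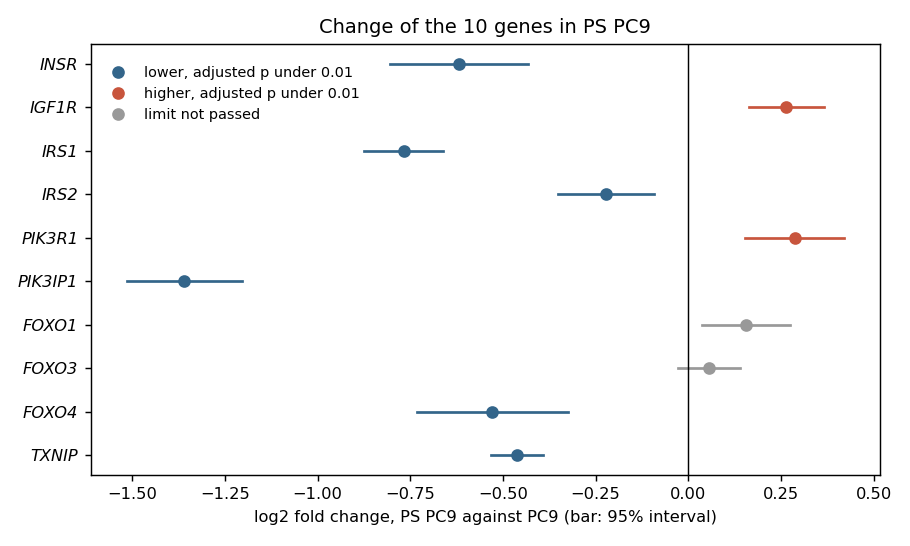
Log2 fold change of PS PC9 against PC9 (horizontal axis) for the 10 genes in pathway order, with 95% intervals as bars, coloured by whether the gene was lower, higher or did not pass the limit. PIK3IP1 lies farthest from 0 at -1.36, and the intervals of the rising IGF1R and PIK3R1 lie wholly above 0 while that of FOXO3 spans it.

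The genes with the pattern most like that of a member were found by the Euclidean distance of 6 log2 CPM values, each centred on its gene's PC9 mean, among 10216 well-expressed genes. For PIK3IP1 they were KLK6 (distance 0.134), a secreted serine protease, P2RY6 (0.148), a receptor for UDP, and QPRT (0.152), an enzyme of NAD synthesis. IRS1 was most like SNX30 (0.0676), B9D1 (0.0847) and TMEM71 (0.0900). INSR was most like BMP4 (0.113), COQ8A (0.116) and TNNT1 (0.120). These distances mainly reflect the size of the change between conditions, as the log2 fold changes of the 3 neighbours of PIK3IP1 lay between -1.35 and -1.30.

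The transcript counts were tested in the same way. Of 52 annotated transcripts of the 10 genes with a count 26 passed the filter, and for IGF1R the annotated transcripts covered only between 13.8% and 28.7% of the gene's counts. At the same limit 4 of them were lower and 0 higher by edgeR's quasi-likelihood method, and 7.80% of all 54499 transcripts tested changed. The 4 were the main coding transcripts INSR-201 (log2 fold change -0.84, adjusted p = 0.00855), IRS1-201 (-0.81, 0.000409), PIK3IP1-201 (-1.48, 0.000375) and TXNIP-204 (-0.49, 0.000268). The call of INSR-201 was lost when any single library was left out, with log2 fold changes from -0.91 to -0.77 and adjusted p from 0.0242 to 0.0381 over the 6 refits. IRS1-201 held between 97.7% and 99.7% of the IRS1 counts and TXNIP-204 at least 99.5% of the TXNIP counts in every library, so these genes were measured on a single transcript.

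The forms of INSR with and without exon 11, whose sequence is given above, were not resolved by these counts. INSR-202, without the exon, received 49, 0 and 91 counts in PC9 and 0, 79 and 59 counts in PS PC9. Its share of the gene was 11.1 ± 10.7% in PC9 and 16.6 ± 15.0% in PS PC9 (SD, n = 3), and the zero counts of PC9 replicate 2 and PS PC9 replicate 1 allow shares of up to 0.708% and 1.45%, for counting error only. INSR-201 held 83.8 ± 6.64% and 74.1 ± 14.9%. INSR-201 and INSR-202 also differ at both ends, so exon 11 is not the sole feature by which reads were divided. The swings between libraries of the same condition were larger than the difference between conditions and exceeded these counting limits, and their cause was not tested.

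FOXO3-201 and FOXO3-202, which have coding sequences of the same length, held 61.4 ± 2.28% and 35.2 ± 0.393% of FOXO3 in PC9 and 55.7 ± 2.72% and 40.9 ± 2.12% in PS PC9. In PIK3R1, PIK3R1-211, which has the full-length coding sequence, held 72.2 ± 1.22% and 76.6 ± 2.37%. It was not the only such form, as PIK3R1-213, with a coding sequence of the same length, held 10.9 ± 2.04% and 9.48 ± 6.63%. PIK3R1-201 and PIK3R1-202, with shorter coding sequences, ranged between 0% and 15.0% of a library's PIK3R1 counts, and overlapped between conditions. In PIK3IP1 the retained-intron transcript PIK3IP1-205 received 0, 27 and 0 counts in PC9 and 21, 18 and 31 counts in PS PC9. A test of transcript usage (edgeR's diffSpliceDGE, Simes p per gene) gave 0 of 8 members with a change, IGF1R on its annotated transcripts alone, 0 of them at an unadjusted p under 0.05, the smallest being 0.0613 for TXNIP, and 1.88% of 10545 genes tested changed. Without PC9 replicate 2, PIK3IP1 passed the limit (adjusted p = 0.00351). No other tool was run for usage.

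**Figure D3:**
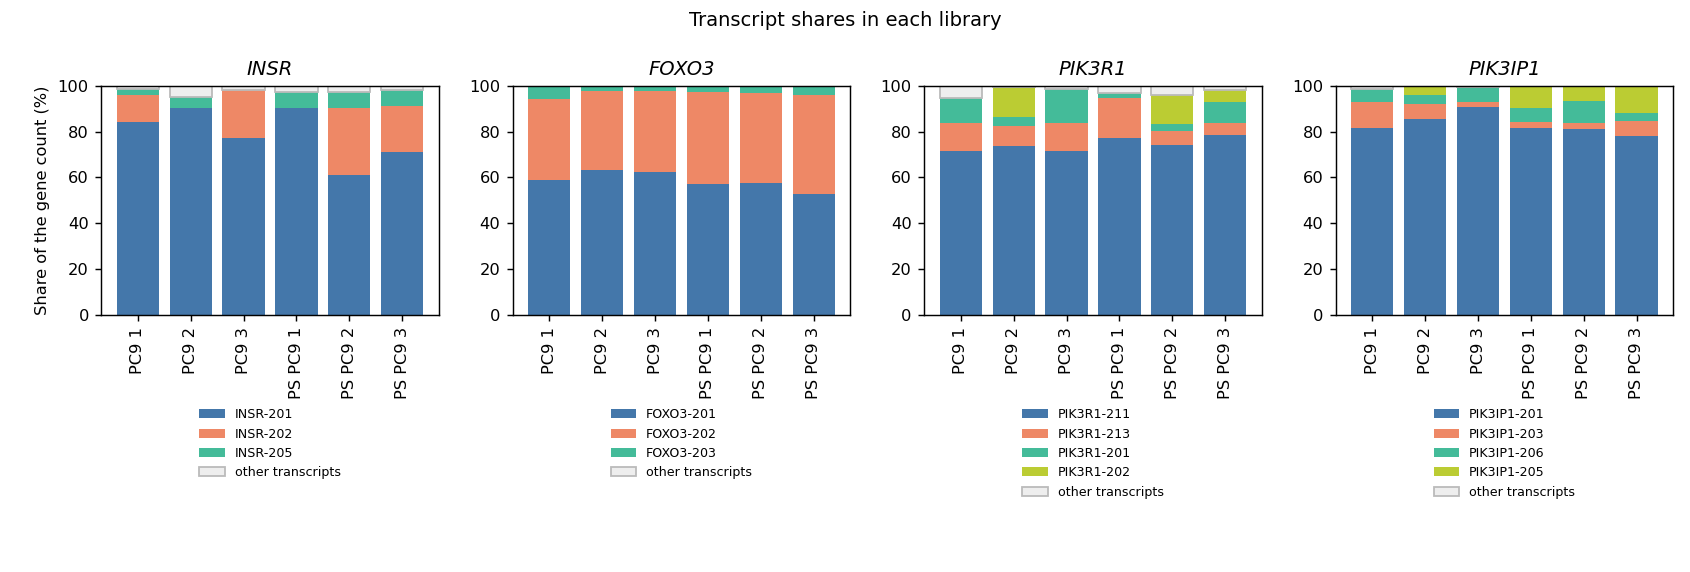
Share of each tested transcript in the counts of INSR, FOXO3, PIK3R1 and PIK3IP1 (vertical axis, %) in each of the 6 libraries, with untested transcripts in grey. The INSR-202 share is 0% in PC9 replicate 2 and PS PC9 replicate 1 and 29.3% in PS PC9 replicate 2, whereas FOXO3-202 lies between 34.8% and 43.2% throughout.

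The promoters of the members were searched on both strands for the FOXO consensus GTAAACA, the insulin response element CAAAACA, through which FOXO proteins bind insulin-repressed genes, and the E-box CACGTG, a core that Mondo factors can bind. The windows were those of RefSeq on GRCh38.p14, 250 bases before to 50 after each start, and the 10 genes had 18 of them. GTAAACA stood in 1 window each of FOXO4, PIK3IP1 and TXNIP, and in 3.42% of all 35116 windows. CAAAACA stood in that of IRS2 and in 4.92% of all windows. CACGTG stood in that of IRS1 and in 7.26% of all windows. Only exact matches were counted, so looser forms of these motifs were not assessed. The lack of CACGTG in the TXNIP windows thus does not show that they hold no site for Mondo factors. The matches in FOXO4, PIK3IP1 and IRS1 lay after the start, from bases 24, 17 and 36. The windows before the start of TXNIP and IRS2 are given because they hold a match to a FOXO motif and both genes fell. Capitals mark the match, which begins 124 bases before the start in TXNIP and, as TGTTTTG on the strand shown, 40 bases before it in IRS2. They lie at chr1:145996580-145996829 and chr13:109786584-109786833, both on the minus strand and written 5′ to 3′ towards the gene. A match of this kind is a description of the sequence and was not tested for binding.
TXNIP: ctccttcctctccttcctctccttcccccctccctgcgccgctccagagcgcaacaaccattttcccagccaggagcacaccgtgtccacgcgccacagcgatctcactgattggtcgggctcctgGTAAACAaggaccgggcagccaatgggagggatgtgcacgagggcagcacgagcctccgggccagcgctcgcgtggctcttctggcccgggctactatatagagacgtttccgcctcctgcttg
IRS2: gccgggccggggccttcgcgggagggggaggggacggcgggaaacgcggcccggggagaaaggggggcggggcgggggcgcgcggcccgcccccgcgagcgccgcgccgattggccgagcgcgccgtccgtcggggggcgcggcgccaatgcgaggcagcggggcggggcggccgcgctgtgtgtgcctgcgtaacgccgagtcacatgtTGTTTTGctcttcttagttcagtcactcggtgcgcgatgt

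The rest of the pathway was described through 8 lists with 158 genes in all, of which 142 were tested. Of these 39 were lower and 54 higher in PS PC9, so 65.5% changed beside the 56.8% of all genes. The share changed ran from 27.3% for the PI3K subunits to 87.5% for the ligand list. For the counts by direction below, 28.1% of all genes tested were lower and 28.7% higher. The lists were chosen with earlier results of these data known, so these comparisons describe them and do not test them. The values below are mean CPM of 3 libraries, and a gene is said to rise or fall only where it passed the edgeR limit.

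Ligand genes were scarcely detected: INS had 0 counts, and IGF1 and IGF2 had at most 5 counts in a library. Of the 8 tested genes of the ligand list 3 fell and 4 rose, with a median log2 fold change of 0.11. IGFBP5 and IGFBP3, which bind insulin-like growth factors outside the cell, rose from 44.3 ± 0.777 to 183 ± 4.82 CPM and from 449 ± 3.22 to 1135 ± 22.7 CPM (SD, n = 3). These were log2 fold changes of 2.05 and 1.34 (edgeR adjusted p = 2.65e-11 and 1.38e-10). Other binding proteins fell, IGFBP6 by 1.01, IGFBP2 by 0.67 and IGFBP1 by 1.60 on the log2 scale, the last from under 1 CPM. Over the 7 binding protein genes listed, 3 thus rose and 3 fell. IGF2R, which takes up and clears IGF2, rose from 153 ± 6.29 to 283 ± 9.82 CPM (log2 fold change 0.88).

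Of the 23 tested adaptors and brakes 6 fell and 6 rose, with a median of 0.089. GRB10, an adaptor that inhibits both receptors, rose from 34.5 ± 1.06 to 106 ± 2.00 CPM (SD, n = 3, log2 fold change 1.62, edgeR adjusted p = 2.02e-10). ENPP1, an inhibitor of the insulin receptor, rose by 1.35 on the log2 scale, and PTPN11, the phosphatase SHP2, by 0.63. SOCS3, a feedback inhibitor of cytokine and insulin signalling that can direct IRS proteins to degradation, fell from 36.2 ± 3.79 to 8.90 ± 0.384 CPM (-2.03). GRB7, an adaptor of ERBB2 related to GRB10, fell from 33.5 ± 1.78 to 8.30 ± 0.453 CPM (-2.01). CBLB, a ubiquitin ligase, fell by 0.61, a call lost with gene counts summed from transcripts. The listed brakes thus did not move together.

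Of the 11 tested PI3K subunit genes 0 fell and 3 rose, with a median of 0.038. The share changed was 27.3%, below the 56.8% of all genes tested. The 3 were PIK3C2B (log2 fold change 0.69, edgeR adjusted p = 2.59e-07), PIK3R2 and PIK3CD, the catalytic subunit p110δ (0.28, 0.00156). Without PS PC9 replicate 3 the count was 1, since PIK3CD and PIK3R2 missed the limit. PIK3CA, the catalytic subunit p110α, was at 98.1 ± 3.88 and 102 ± 6.20 CPM (log2 fold change 0.058, edgeR adjusted p = 0.334), named after its value was seen.

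Of the 11 tested phosphatases 3 fell and 5 rose, with a median of -0.039. The AKT phosphatases PHLPP1 and PHLPP2 moved in opposite directions. PHLPP1 fell from 51.9 ± 2.30 to 22.8 ± 1.49 CPM (SD, n = 3, log2 fold change -1.19, edgeR adjusted p = 2.35e-08), and PHLPP2 rose from 12.9 ± 1.26 to 23.6 ± 1.14 CPM (0.87, 1.96e-06). Among phosphoinositide phosphatases INPP4B fell by 0.73 and INPP5F by 0.50, while INPP5J rose by 1.19 and INPP4A by 0.25, the last not with gene counts summed from transcripts.

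All 29 genes of the AKT, SGK and mTOR list were tested, of which 3 fell and 15 rose, with a median of 0.26. The list mixes kinases with their direct regulators, so its count and median do not give a direction of signalling. PRR5L, a partner of mTORC2, rose from 3.27 ± 0.452 to 13.2 ± 0.582 CPM (log2 fold change 2.01), SGK1, a kinase related to AKT that also phosphorylates FOXO3, from 8.76 ± 0.437 to 22.3 ± 0.676 CPM (1.35), and MTOR from 71.6 ± 1.46 to 128 ± 3.29 CPM (0.84). Their edgeR adjusted p were 2.91e-08, 1.74e-08 and 1.41e-08. RICTOR, the defining subunit of mTORC2, fell from 162 ± 17.0 to 100.2 ± 5.62 CPM (-0.70, 7.09e-06). EIF4EBP2 and TBC1D1 fell by 0.21 and 0.23. Among genes named after their values were seen, AKT1 rose by 0.31, while AKT2 (0.14, edgeR adjusted p = 0.0112) missed the limit.

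All 19 genes of the list of FOXO6 and regulators of FOXO proteins were tested, of which 3 fell and 11 rose, with a median of 0.19. The 14-3-3 proteins, encoded by the YWHA genes and SFN, bind phosphorylated FOXO proteins in the cytoplasm. Of these 7 genes 5 rose, beside 28.7% of all genes tested, among them YWHAH (log2 fold change 0.50, edgeR adjusted p = 4.91e-07) and YWHAB (0.42, 6.52e-07), while YWHAZ (-0.10, 0.0219) and SFN (0.094, 0.114) did not pass. The call of YWHAE, at 0.12 the smallest of the 5, was lost under 8 of 14 other settings, PC9 replicates 2 and 3 and PS PC9 replicates 2 and 3 left out among them. CREBBP, an acetyltransferase that modifies FOXO proteins, rose from 134 ± 5.39 to 236 ± 3.80 CPM (0.82). STK3 and SIRT2, a kinase and a deacetylase that act on FOXO proteins, fell by 0.57 and 0.45.

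**Figure D4:**
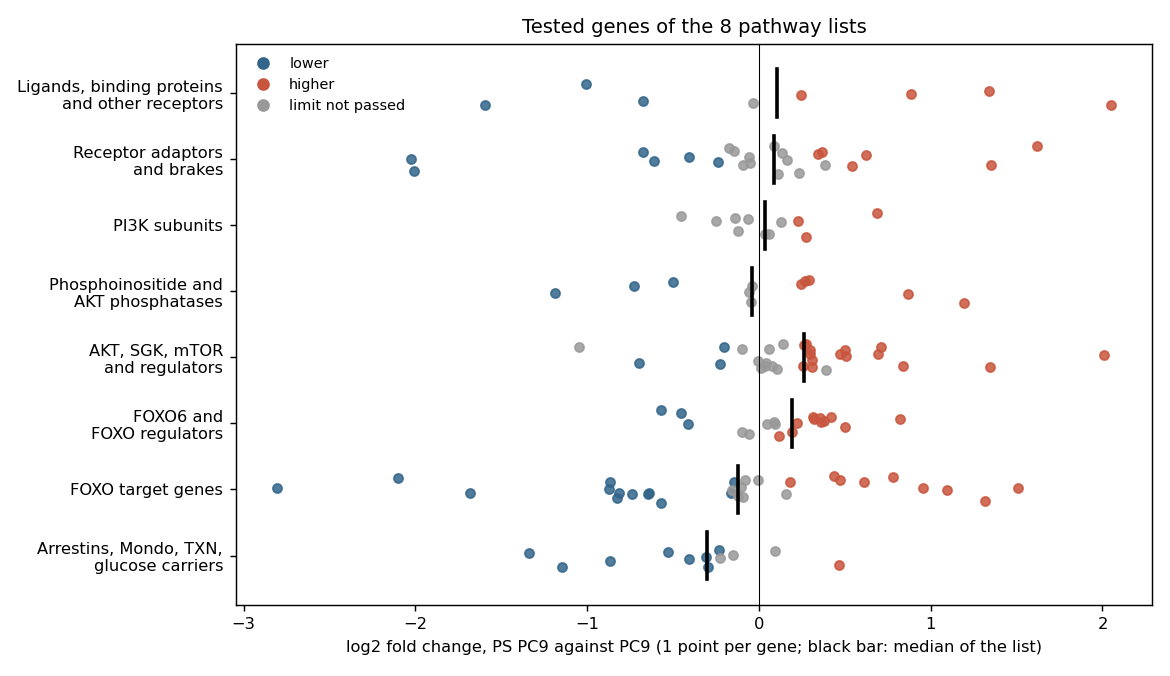
Log2 fold change of PS PC9 against PC9 (horizontal axis) for the 142 tested genes of the 8 pathway lists, 1 point per gene, spread vertically at random within its list, with the list's median as a black bar. The list medians run from -0.30 for the arrestin, Mondo, thioredoxin and glucose carrier list to 0.26 for the AKT, SGK and mTOR list.

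Of the 29 tested FOXO target genes, listed from general knowledge as activated by FOXO proteins in various tissues, 13 fell and 9 rose, with a median log2 fold change of -0.12. Both directions reached large changes. BCL2L11, which encodes the death-promoting protein BIM, rose from 20.9 ± 1.36 to 44.7 ± 1.75 CPM (SD, n = 3, log2 fold change 1.10, edgeR adjusted p = 4.09e-08). GADD45A, a stress gene of growth arrest and DNA repair, rose from 66.0 ± 0.909 to 188 ± 4.44 CPM (1.51, 1.44e-10), and CITED2, a coregulator of transcription, from 62.2 ± 2.03 to 121 ± 5.41 CPM (0.95, 1.84e-08). In contrast, TNFSF10, the death ligand TRAIL, fell from 25.6 ± 1.27 to 3.67 ± 0.293 CPM (-2.80, 3.52e-10). ERBB3, the partner receptor through which EGFR recruits PI3K, fell from 208 ± 1.39 to 125 ± 1.76 CPM (-0.74, 1.33e-08). CAT, catalase, fell by 0.82, and with gene counts summed from transcripts by only 0.24 (adjusted p = 0.601).

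The other FOXO targets are named after their values were seen. Among cell cycle genes CDKN1A, which encodes the inhibitor p21, rose by 1.32 on the log2 scale, while CCNG2 fell by 0.64, RBL2 by 0.57 and CDKN1B, the inhibitor p27, by 0.15. The call of CDKN1B was lost without PC9 replicate 1, PC9 replicate 3 or any PS PC9 replicate, and with no expression filter. Of 6 targets with roles in autophagy or mitophagy, grouped after their values were seen, 3 rose, beside 28.7% of all genes tested. MAP1LC3B rose by 0.44, GABARAPL1 by 0.47 and PINK1 by 0.61, and ATG14 (-0.11), BNIP3 (0.16) and BNIP3L (-0.12) did not pass. PDK4, which holds back pyruvate oxidation, fell by 1.68, and SELENOP, a selenium carrier, by 2.10. PCK1 and G6PC, the liver genes of glucose production, had at most 3 counts in a library.

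**Figure D5:**
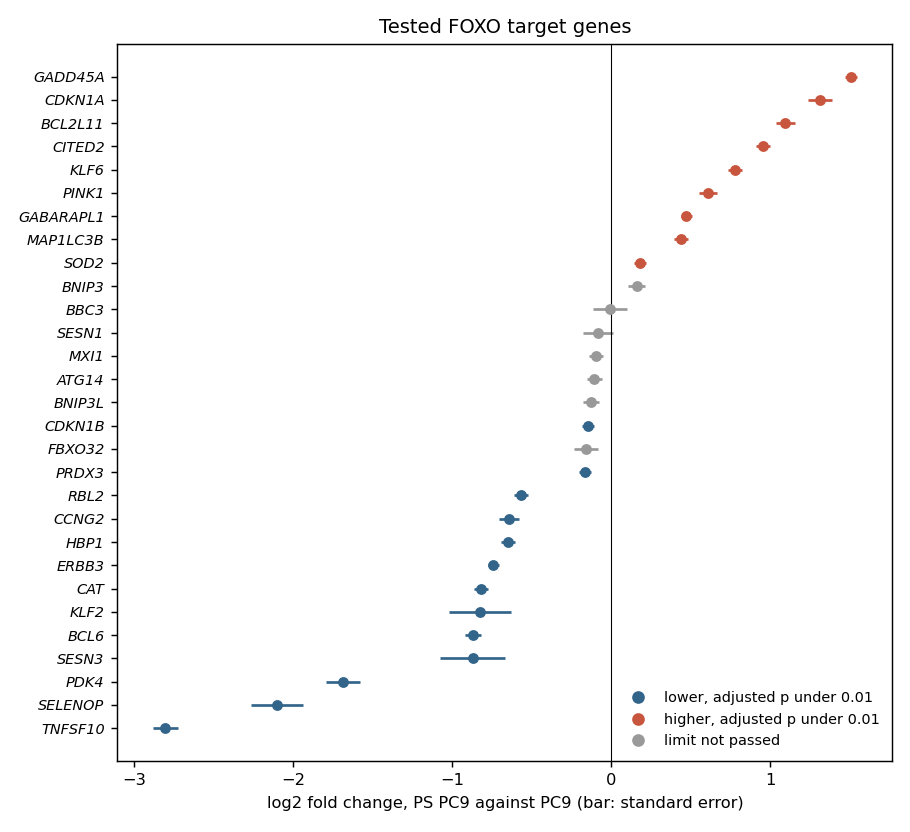
Log2 fold change of PS PC9 against PC9 (horizontal axis) of the 29 tested FOXO target genes, ordered by value, with standard errors as bars. Values run from -2.80 for TNFSF10 to 1.51 for GADD45A, with 13 genes lower and 9 higher.

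Of the 12 tested genes around TXNIP, its alpha-arrestin relatives, Mondo factors, thioredoxins and glucose carriers, 8 fell and 1 rose, with a median of -0.30. ARRDC3, an alpha-arrestin, fell from 53.3 ± 1.33 to 29.2 ± 1.08 CPM (SD, n = 3, log2 fold change -0.87, edgeR adjusted p = 4.77e-08). ARRDC4, which like TXNIP is a target of Mondo factors, was at 25.8 ± 0.714 and 27.5 ± 1.29 CPM and did not pass (0.093, adjusted p = 0.141), named after its value was seen. MLX, the partner of the Mondo factors, fell from 41.3 ± 0.064 to 28.7 ± 0.531 CPM (-0.53, 1.27e-06), and the Mondo factor MLXIP rose from 106 ± 4.64 to 146 ± 1.95 CPM (0.46, 2.29e-06). TXN, the thioredoxin that TXNIP binds, fell from 636 ± 8.70 to 518 ± 3.38 CPM (-0.30, 9.50e-06). The Mondo factor MLXIPL fell by 1.34 and the glucose carriers SLC2A1 and SLC2A3 by 0.41 and 0.23, also named after their values were seen.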

How the data were processed

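Poly-A RNA from 3 PC9 and 3 PS PC9 libraries was sequenced. The authors trimmed reads with bases2fastq, filtered them with FASTP and assigned them with Kallisto (0.46.1 in the submitters' processing notes) to Ensembl transcripts of GRCh38. The deposited estimated counts, rounded to whole numbers and not normalized, are given per gene symbol and per transcript. Whether counting used strand is not given in the sources used here. The uncertainty of dividing reads among similar transcripts enters no test.

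Groups were taken from the sample labels. In R 4.3.3 with edgeR 4.0.16, features passing filterByExpr were normalized by TMM and tested with glmQLFit and glmQLFTest, PS PC9 against PC9, with Benjamini-Hochberg adjustment over all features tested and a limit of 0.01. CPM were scaled by TMM, and log2 CPM used a prior count of 2. The standard error (SE) is the size of the log2 fold change divided by the square root of F. Usage was tested with diffSpliceDGE. The test was run on simulated data first. DESeq2 1.42.0 and limma 3.58.1 served as alternatives, beside other normalizations, filters, limits, summed transcripts, a replicate block and each library left out. Libraries of the same condition differed by more than sampling noise (chi-square per degree of freedom from 3.41 to 20.0), and their spread sets the precision.

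Of 36459 symbols 27685 matched GENCODE 44 by current symbol and 644 by an older symbol listed in RefSeq, with 99.1% of counts. Of 188753 transcripts 167067 matched, with 95.8% of counts. Gene coordinates and transcript lengths are from GENCODE 44 on GRCh38, promoters from RefSeq. The members and gene lists were chosen with earlier results of these data known. Named genes are the members, their paralogs, up to 3 genes past the limit with the smallest p per list and direction, and the 3 genes most like each of the 3 members that changed most, with others marked as named after their values were seen. Figures were drawn with matplotlib 3.10.9. Some genes of the lists are not reported here.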

Additional observations from a re-analysis of the deposited data

How the results depend on the processing

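Each member's log2 fold change was recomputed under 14 other settings, and all 140 values kept their direction, 135 of them on the same side of the limit. The exceptions were IGF1R with gene counts summed from transcripts (0.55, adjusted p = 0.101) and IRS2, whose log2 fold change ran from -0.27 to -0.16 with single libraries left out and passed the limit in 10 of 14 settings. INSR, IRS1, FOXO4, PIK3R1, PIK3IP1 and TXNIP passed in 14 of 14, and FOXO1 and FOXO3 in 0. Of the 93 changed pathway genes 79 passed in every one of these settings and 0 reversed. With a fold above 2 required as well, 1691 genes, 1 member and 20 pathway genes remained past the limit. At an adjusted p under 0.05, 7 member transcripts passed in place of 4, and 6 PI3K subunit genes in place of 3, a count that was 5 with upper-quartile scaling and 1 without PS PC9 replicate 3. Members with changed usage ran from 0 to 1 with single libraries left out. Scaling by library size alone moved the median gene to -0.059, and upper-quartile scaling to -0.049.

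The deviations of libraries of equal replicate number from their condition means were weakly correlated, at 0.124, 0.024 and 0.022. Between libraries of different number the correlations ran from -0.117 to 0.0971, and not every library correlated best with its own number. Whether libraries of equal number share more than the number was not tested. With the replicate number as a block 8671 genes changed in place of 8307, the same count of 8 members, and 1 member transcript, TXNIP-204, in place of 4. IRS1-201 (-0.81, adjusted p = 0.0132), PIK3IP1-201 (-1.48, 0.0101) and INSR-201 (-0.84, 0.0623) missed the limit there. The transcript shares of INSR rested on 207 to 427 counts per library, and the cause of their spread was not tested.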

Other observations

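Within each library, the level of PHLPP2 relative to PHLPP1 per kilobase of canonical transcript was 0.208, 0.175 and 0.182 in the PC9 libraries and 0.817, 0.805 and 0.732 in the PS PC9 libraries. The means were 0.188 ± 0.017 and 0.785 ± 0.046 (SD, n = 3), with a two-sided exact permutation p of 0.1, the smallest that the design allows. This ratio was chosen after the values of both genes were seen.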
